A study of Mus musculus with 9 samples.

Results

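To ask how chromatin accessibility differs between the *Atrx* KO clone G7 and WT cells, the 3 ATAC-seq libraries of G7 were compared with the 3 WT libraries, 6 of the 9 libraries in the series. ATAC-seq uses a transposase that cuts open chromatin, so that places with many fragments appear as peaks. The cells were C3H/10T1/2, an established mouse line used as mesenchymal progenitor cells (MPCs). G7 is a single-cell clone made with CRISPR-Cas9 and a guide RNA against *Atrx*, and the WT control is an isogenic line that received an empty vector with Cas9 and no guide RNA. All cells had therefore been exposed to Cas9, and the labels name no treatment of either line. G7 is 1 clone, so a difference of the clone and an effect of losing ATRX cannot be told apart here. Peaks on chromosomes 1 to 19 were merged across the 6 libraries into 116148 regions, and the 84718 regions with a peak in at least 2 of 3 libraries of either line were kept as consensus regions. Of these, 49548 held a peak in all 6 libraries.

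ATRX is a chromatin remodeller that works with DAXX to place the histone variant H3.3 at heterochromatin, including telomeres, repeats and imprinted genes. MPCs give rise to adipocytes, osteoblasts, chondrocytes and myocytes, and each fate depends on regulators such as *Pparg*, *Runx2*, *Sox9* and *Myod1*. Enhancers and promoters of the genes a cell uses lie in open chromatin, and factors such as AP-1 and SOX proteins bind short DNA motifs there. Gained regions are those with a peak in 2 or 3 G7 libraries and in 0 WT libraries, and lost regions those with the roles of the lines exchanged. Regions with 3 against 0 libraries are called strict. For regions with a peak in all 6 libraries, the strength was compared as the rank, the percentile of the −log10 q-value of a peak within its own library, with 100 the strongest. The peak lists give no read counts, so depth is unknown and a region without a peak is called not detected, never closed. In these bulk libraries a region open in fewer cells and a region less open in each cell cannot be told apart.

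The sequences of a few regions are given first, since the shares of 2 short motifs differed between lost and gained regions. The 4 strict lost regions of highest rank that lay in introns or between genes and held an AP-1 motif (TGACTCA or TGAGTCA) within 100 bp of the summit are shown around the summit in mm10, with the motif in capitals. They were present in every WT library at ranks of 82.1 or above.
Aipl1, chr11:71996067-71996167, plus strand: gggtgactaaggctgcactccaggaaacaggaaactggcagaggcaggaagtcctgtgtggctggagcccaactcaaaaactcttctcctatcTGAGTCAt
Tnr, chr1:159517886-159517986, plus strand: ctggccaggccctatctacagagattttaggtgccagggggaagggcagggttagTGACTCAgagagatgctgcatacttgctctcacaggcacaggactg
Ccnc, chr4:21722965-21723165, plus strand: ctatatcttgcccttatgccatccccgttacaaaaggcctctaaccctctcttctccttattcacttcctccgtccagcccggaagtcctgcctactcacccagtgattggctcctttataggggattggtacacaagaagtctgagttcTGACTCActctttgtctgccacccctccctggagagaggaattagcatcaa
Rbfox1, chr16:6963664-6963764, plus strand: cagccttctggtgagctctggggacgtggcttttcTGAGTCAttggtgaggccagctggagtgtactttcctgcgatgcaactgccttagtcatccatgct
The window named for *Tnr* lay 5.49 kb from the start of that gene, which encodes the matrix protein tenascin R, and the window named for *Rbfox1*, a splicing factor, lay in an intron. The 4 corresponding strict gained regions with a SOX motif (CCTTTGTT, CCTTTGTC or CCTTTGTG on either strand) are shown in the same way, and ranked at 49.4 to 74.4 in G7.
Fam19a2, chr10:123420372-123420572, plus strand: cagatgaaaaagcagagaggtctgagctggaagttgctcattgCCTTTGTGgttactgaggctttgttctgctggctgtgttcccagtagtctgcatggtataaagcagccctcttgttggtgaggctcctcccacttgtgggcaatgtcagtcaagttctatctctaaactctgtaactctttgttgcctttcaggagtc
Dysf, chr6:84134916-84135016, plus strand: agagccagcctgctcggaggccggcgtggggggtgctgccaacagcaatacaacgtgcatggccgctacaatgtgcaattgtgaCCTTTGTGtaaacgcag
Slc16a7, chr10:125197806-125197906, plus strand: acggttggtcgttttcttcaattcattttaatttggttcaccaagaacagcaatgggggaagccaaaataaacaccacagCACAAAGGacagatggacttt
Olig3, chr10:19208235-19208435, plus strand: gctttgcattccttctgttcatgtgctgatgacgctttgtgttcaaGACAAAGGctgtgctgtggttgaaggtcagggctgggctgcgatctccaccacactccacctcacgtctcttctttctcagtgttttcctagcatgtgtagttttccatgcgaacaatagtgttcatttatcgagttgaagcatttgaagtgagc
The window named for *Slc16a7*, a monocarboxylate transporter, lay 111 kb from its start in the densest group of gained regions of the genome, described later.

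Promoters are shown next, since many are rich in CpG, which DNA methylation and several chromatin proteins act on. Of 15 strict promoter regions named by rank, 12 matched a RefSeq promoter (GRCm38). For the first 3 matched genes of each direction, the 200 bases before the RefSeq start are shown on the strand of the gene, with each CpG in capitals. Over 31396 RefSeq promoters on chromosomes 1 to 19, the median was 4 CpGs in this window (quartiles 2 and 11). The gained promoters of *Pfn4*, *Slc24a3* and *En1* held 27, 25 and 15.
Pfn4, chr12:4769045-4769244, plus strand: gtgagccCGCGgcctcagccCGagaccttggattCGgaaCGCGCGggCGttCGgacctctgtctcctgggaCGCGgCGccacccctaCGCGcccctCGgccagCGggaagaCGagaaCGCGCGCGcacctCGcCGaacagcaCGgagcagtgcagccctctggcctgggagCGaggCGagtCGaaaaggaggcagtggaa
Slc24a3, chr2:145167525-145167724, plus strand: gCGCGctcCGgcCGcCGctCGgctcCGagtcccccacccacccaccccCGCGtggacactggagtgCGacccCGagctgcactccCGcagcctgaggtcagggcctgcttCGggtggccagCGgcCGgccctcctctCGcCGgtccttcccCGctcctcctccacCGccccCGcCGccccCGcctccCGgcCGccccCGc
En1, chr1:120602237-120602436, plus strand: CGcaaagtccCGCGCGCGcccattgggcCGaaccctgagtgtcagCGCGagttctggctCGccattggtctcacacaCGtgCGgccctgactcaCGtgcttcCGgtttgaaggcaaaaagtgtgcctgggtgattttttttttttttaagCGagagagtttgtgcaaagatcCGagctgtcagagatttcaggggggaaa
The lost promoters of *Agrn*, *Soga3* and *Dusp18* held 27, 6 and 10.
Agrn, chr4:156197539-156197738, minus strand: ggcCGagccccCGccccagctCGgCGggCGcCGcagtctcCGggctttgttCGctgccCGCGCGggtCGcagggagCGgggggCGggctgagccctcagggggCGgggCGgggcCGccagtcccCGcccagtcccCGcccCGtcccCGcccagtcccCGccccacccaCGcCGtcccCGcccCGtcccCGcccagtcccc
Soga3, chr10:29143746-29143945, plus strand: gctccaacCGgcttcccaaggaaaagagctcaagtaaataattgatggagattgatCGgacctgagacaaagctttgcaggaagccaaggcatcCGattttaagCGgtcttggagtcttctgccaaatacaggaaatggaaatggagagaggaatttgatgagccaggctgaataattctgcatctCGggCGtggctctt
Dusp18, chr11:3894990-3895189, plus strand: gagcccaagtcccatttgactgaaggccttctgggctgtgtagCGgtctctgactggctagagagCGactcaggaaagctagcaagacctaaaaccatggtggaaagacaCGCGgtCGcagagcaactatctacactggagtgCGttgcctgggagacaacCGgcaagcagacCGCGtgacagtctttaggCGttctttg

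Before lines were compared, the libraries were examined. They held 74643 to 77706 peaks in G7 and 76479 to 79534 in WT, covering 46.9 to 49.0 Mb and 45.7 to 48.1 Mb. Replicate 1 stood apart in both lines. Its AP-1 motif share was 14.1% in G7 and 16.3% in WT, against 18.2% to 21.7% in the other 4 libraries. Deviations of same-numbered G7 and WT libraries from their line means correlated across regions (0.66, 0.50 and 0.36 for replicates 1, 2 and 3), so the replicate block is reported beside the counts. Of 17 mesenchymal progenitor markers, 14 had a peak within 1 kb of a start in every library, and *Cd34*, *Nt5e* and *Thy1* in none. Of 17 markers of other cell types, 2, 3 and 4 had one in G7 and 5, 4 and 5 in WT, and 12 genes, among them *Ptprc*, *Epcam* and *Cdh5*, had none. *Atrx* itself kept a peak at its start in all 6 libraries, at ranks of 82.6 to 83.2 in G7 and 81.5 to 82.5 in WT. A peak at the start says nothing of the coding sequence, so this does not check the knockout.

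G7 differed from WT in both directions. It gained 5359 regions (6.33% of the consensus regions) and lost 7076 (8.35%), of which 2096 (2.47%) and 2831 (3.34%) were strict. Among regions open in all 6 libraries, 1547 (3.12%) had a higher rank in G7 and 1681 (3.39%) a lower one (limma, Benjamini-Hochberg adjusted p under 0.05), and the ranks of the lines did not overlap in any of these 3228. With the replicate block, which compares same-numbered libraries, the counts were 5949 (12.0%) higher and 6807 (13.7%) lower, and all 3228 calls were among them in the same direction. Without replicate 1 of both lines, 5256 regions were gained, 6172 lost, 4591 higher and 4951 lower. Without replicate 2 or replicate 3 of both lines, limma called 0 regions in either direction, with 7285 and 5924 regions at an unadjusted p under 0.05. Single libraries moved these counts too. Without WT replicate 1, gains rose to 8752 and higher ranks to 2950, while leaving out G7 replicate 1, 2 or 3 gave 3295, 3095 and 3209 gains and 589, 315 and 123 higher ranks. Losses fell to 3649 and 3796 without WT replicate 2 or 3, and lower ranks to 220 and 215, against 609 and 240 without G7 replicate 2 or 3.

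Gained and lost regions were distal more often than the regions that changed in rank. A transcription start lay within 1 kb of 9.39% of gained regions (95% Wilson interval from 8.63%) and 8.28% of lost regions. The share was 33.6% for higher, 31.9% for lower and 18.6% for all consensus regions. Higher and lower regions could only come from those with a peak in all 6 libraries, where it was 26.4%. Median ranks were 18.2 for gained, 21.2 for lost and 66.7 for regions in all 6 libraries. How far these starting sets make the contrast was not tested. Gained regions were 49.4% intronic and 33.6% intergenic, and lost regions 38.1% and 47.6%. Over all consensus regions, 37.9% were in introns and 35.99% were intergenic. These shares describe the calls and were not tested.

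Promoters were gained in G7 for genes of several functions. Gained regions lay within 1 kb of a protein-coding start for 280 genes and lost regions for 331, of 11234 with any consensus region there. *En1*, a homeobox factor of brain and limb patterning, had a region at its promoter (chr1:120601969-120602949) at ranks of 81.7, 79.8 and 82.7 in G7 replicates 1, 2 and 3 and no peak in WT. It thus went from no peak in any WT library to ranks of 79.8 or above in every G7 library. The highest gained promoter was that of *Pfn4*, a profilin of the testis, at 90.3, 89.1 and 86.2 (chr12:4768671-4769522). *Slc24a3*, a cation exchanger, ranked at 87.3, 83.0 and 84.6 (chr2:145166961-145168690). It was gained although ranks on chromosome 2 were lower in G7 in general (median difference of -4.02 percentile points). The other named gained promoters were those of *Arhgap26* (79.1 to 83.5), *Tpd52l1* (78.3 to 82.2), the ER membrane complex gene *Emc9* (74.2 to 76.8) and the zinc finger gene *Zfp2* (73.9 to 80.9).

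Lost promoters reached even higher ranks in WT. *Agrn*, the gene of the matrix proteoglycan agrin, had a region at chr4:156197082-156198224 at 96.7, 91.6 and 95.3 in WT replicates 1, 2 and 3 and no peak in G7. *Oxr1*, an oxidation resistance gene, had one at chr15:41446838-41448304 with 89.5, 91.2 and 91.6. *Rnls*, the gene of the flavoprotein renalase, had one at chr19:33391609-33392466 with 93.0, 89.9 and 87.2. Regions among the strongest of WT were thus not detected in any G7 library. The promoters of *Soga3* (85.9 to 86.5), the phosphatase gene *Dusp18* (84.0 to 84.5), the G-protein regulator *Rgs7* (80.2 to 82.6), *Saysd1* (79.6 to 81.1) and the prostaglandin reductase gene *Ptgr2* (78.9 to 82.8) were lost in the same way. Each gained or lost promoter named here kept its call with peaks of −log10 q of at least 3. Since they were chosen for high ranks, they could hardly fail this filter, so it is no check.

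**Figure D1:**
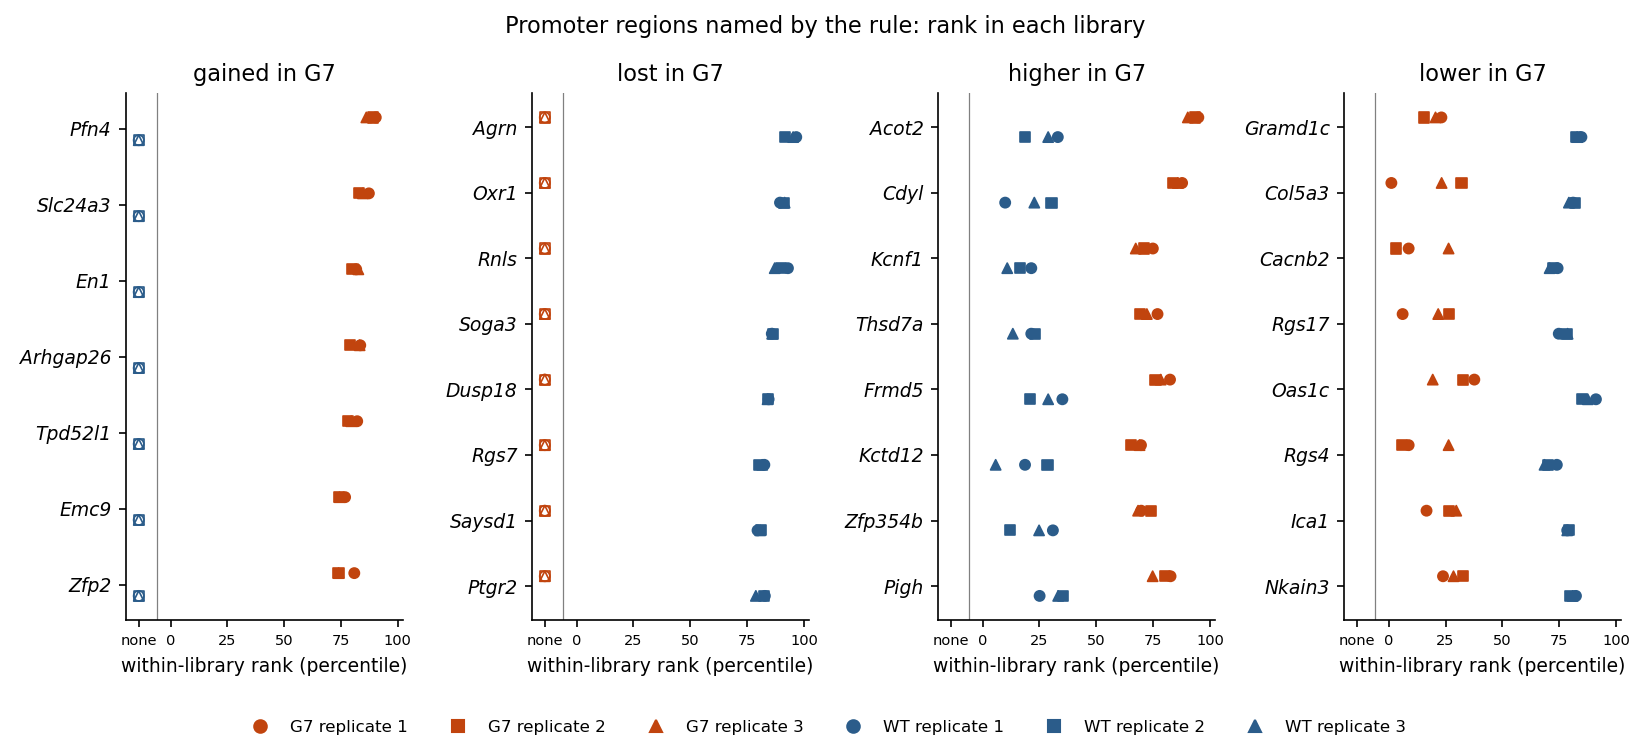
Rank (percentile of −log10 q within a library, x axis) of the promoter regions named for each kind of change, with 1 point per library, G7 in orange and WT in blue, and hollow points at "none" where a library had no peak. Gained and lost promoters ranked at 73.9 or above in the line that held them. The 16 genes of the higher and lower panels were chosen among calls whose lines did not overlap.

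Away from protein-coding promoters, the strongest gained region lay 40.5 kb from the start of *Cnmd*, the gene of the cartilage glycoprotein chondromodulin, at another annotated transcript start (chr14:79702686-79704915). Its ranks were 93.7, 87.2 and 87.9 in G7. The region at the start of *Peg13*, an imprinted noncoding RNA, had 88.4, 87.2 and 86.3 (chr15:72809076-72810733). Neither had a peak in WT. A region in an exon 44.1 kb from the start of *Elfn2* ranked at 85.1 to 85.9, and a region in an intron 3.01 kb from the start of *LTO1* at 78.7 to 94.7. Lost distal regions of highest rank lay 41.1 kb from *Aipl1*, a photoreceptor gene (86.9 to 94.0), 394 kb from *Klhl29* (85.1 to 89.4), 5.49 kb from *Tnr* (84.6 to 85.2) and 94.0 kb from *Trim42* (84.4 to 88.5).

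Among regions open in all libraries, the largest rise at a promoter was at *Acot2*, a mitochondrial acyl-CoA thioesterase. Its region (chr12:83987041-83988686) ranked at 94.9, 93.6 and 90.3 in G7 and 33.1, 18.7 and 28.8 in WT, a difference of 66.1 ± 4.89 percentile points (SE, limma adjusted p = 0.00304). *Cdyl*, a chromodomain protein that binds repressive histone marks, rose by 64.8 ± 5.96 (adjusted p = 0.00408). Its ranks were 87.8, 83.7 and 85.9 in G7 and 9.90, 30.3 and 22.7 in WT. The other named promoters that rose were those of the potassium channel gene *Kcnf1* (54.8), *Thsd7a* (53.6), *Frmd5* (50.7), *Kctd12* (50.4), the zinc finger gene *Zfp354b* (48.2) and *Pigh* of GPI anchor synthesis (48.0 percentile points), with adjusted p from 0.00409 to 0.00969. *Zfp354b* is a neighbour of *Zfp2* on chromosome 11, so 2 zinc finger promoters side by side were more accessible in G7. The calls at *Kctd12* and *Zfp354b* passed the threshold in 5 of 6 fits that left out a library, and those of the other 6 in all 6.

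Distal regions rose as far. A region 38.1 kb from *Myod1*, the master regulator of the muscle lineage, ranked at 94.9, 94.4 and 93.9 in G7 and 28.7, 31.9 and 28.8 in WT (chr7:46337265-46338349, difference of 64.6 ± 3.59, limma adjusted p = 0.00235). The start of *Myod1* itself had no consensus region within 1 kb, and the nearest, 2.25 kb away, did not pass the test (difference of 11.5 ± 4.15, adjusted p = 0.145, or 0.0315 with the replicate block). An intronic region of *Antxr1*, a collagen-binding receptor, rose by 73.7 ± 5.47 (adjusted p = 0.00304), the widest rise of all named regions. Regions near *Akap2* and *Kif12* rose by 62.4 and 60.8 but passed in only 3 and 4 of the 6 fits that left out a library.

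Falls in rank at promoters included collagen and signalling genes. *Gramd1c* had ranks of 23.2, 15.5 and 20.6 in G7 and 84.8, 82.3 and 82.9 in WT (chr16:44062893-44063795, difference of -63.6 ± 4.45, limma adjusted p = 0.00304). *Col5a3*, a chain of the fibrillar collagen V, had 1.15, 32.0 and 23.3 in G7 and 81.1, 82.0 and 79.3 in WT (difference of -62.0 ± 7.89, adjusted p = 0.00878). The calcium channel subunit gene *Cacnb2* differed by -59.7, and the G-protein signalling regulators *Rgs17* and *Rgs4* by -59.2 and -57.2 percentile points. With *Rgs7*, whose promoter was lost, 3 regulators of this family were less accessible, and they were named by size and not as a family. *Oas1c*, a member of a family of near-identical interferon genes whose reads may be split between copies, differed by -58.1, *Ica1* by -54.5 and *Nkain3* by -52.8. All 8 passed in each fit that left out a library. The widest falls elsewhere were an exonic region 47.5 kb from *Erap1* (16.6, 8.67 and 1.34 in G7 and 88.2, 87.7 and 86.2 in WT, difference of -78.5 ± 5.34, limma adjusted p = 0.00304), a region 141 kb from *Tacc1* (-73.3) and a pair of regions near *Clnk* (-65.9 and -63.2).

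Changes by presence were concentrated beside some genes. The genes of this paragraph were chosen after their values were seen, by the number of regions nearest to their start. *Slc16a7* on chromosome 10 had a peak in 28, 24 and 29 of its 30 regions in G7 and in 1, 2 and 2 in WT, so that 28 of 30 were gained. Its own promoter was among them, but weak, at ranks of 14.96 and 11.6 in G7 replicates 1 and 3. *Fgfr2*, an FGF receptor of bone and cartilage growth, was the reverse. It had a peak in 0, 1 and 0 of its 15 regions in G7 and in 14, 13 and 14 in WT, and 14 were lost. The promoter of *Fgfr2* was one of these (chr7:130265009-130266639), with ranks of 74.1, 67.1 and 66.0 in WT and no peak in G7. *Wdr11*, its neighbour, lost 11 of 17 regions, while its promoter ranked at 86.7 to 88.7 in G7 and 84.3 to 87.5 in WT (limma adjusted p = 0.378).

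Other loci were switched in the same way. *Rbfox1* lost all 11 of its regions and *Ptprt*, a receptor phosphatase, all 10. *Fndc1* lost 13 of 14, *Msc*, a bHLH repressor of myogenesis, 12 of 15, and *Flrt3* 13 of 20. At *Flrt3*, a ligand of FGF and Robo signalling, the promoter stayed open but fell from 95.2, 95.7 and 95.1 in WT to 66.2, 65.8 and 68.3 in G7 (limma, difference of -28.6 ± 1.67, adjusted p = 0.00235). On the gained side stood *Csmd3* with 24 of 51 regions, *Zfhx3* with 14 of 43, *Foxp1* with 14 of 67, *Tenm3* with 12 of 24 and *Tcf4* with 10 of 45. None of the gained regions of *Zfhx3* and *Foxp1*, both transcription factors, lay within 1 kb of a start of the gene. In all, 12 genes had at least 10 gained regions and 16 had at least 10 lost regions, of 16394 genes nearest to a consensus region.

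In windows of 1 Mb, the densest strict gains stood on chromosome 10 from chr10:125114268 to chr10:125791345, with 19 strict gained regions of 40 consensus regions, 18 of them nearest to *Slc16a7*. The next held 12 of 47 on chromosome 6 (*Frmd4b*, *Lmod3* and *Mitf*, a pigment cell regulator) and 9 of 81 on the same chromosome (*Kbtbd12*, *Sec61a1*, *Mgll* and *Rab7*). No region was lost in the first 2 of these windows. The densest strict losses were 24 of 57 regions on chromosome 1 at the *Sp100* and *Sp110* gene cluster, whose repeated gene models may share reads, so their separate values are uncertain. Then came 16 of 32 regions on chromosome 1, with 9 nearest to *Msc* and 7 nearest to *Eya1*, a regulator of muscle precursors, and 15 of 49 on chromosome 5 around the VEGF receptor gene *Flt1*, *Flt3* and the homeobox genes *Gsx1*, *Cdx2* and *Pdx1*. None of these 3 windows had a gained region.

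Beside cartilage genes, gains outnumbered losses. Of 316 regions nearest to 20 cartilage genes, 50 were gained (15.8%, against 6.33% of all consensus regions) and 7 were lost (2.22%, against 8.35%). These regions held a peak in 278, 279 and 280 cases in G7 and in 239, 237 and 236 in WT, so the lines did not overlap. The totals over all consensus regions did overlap, with 67979, 71067 and 69995 in G7 and 68804, 71913 and 70770 in WT. In rank, 10 cartilage regions of 181 were higher (5.5%, against 3.12% of all) and 4 lower (2.21%, against 3.39%). With the replicate block, 41 of the 181 were higher and 27 lower, where 12.0% and 13.7% of all regions tested were. The median difference was 0.71 against -0.13 over all regions, or -0.11 against -0.29 after centring by chromosome. The list was chosen with earlier results of these data known, so these counts are a description.

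*Sox9*, the master regulator of cartilage, stood first in this list with 102 regions, of which 18 were gained and 0 lost. The promoter of *Sox9* was strong in both lines (97.8, 97.4 and 98.2 in G7 and 97.4, 95.2 and 96.6 in WT) and did not pass the test (difference of 1.4 ± 0.63, limma adjusted p = 0.223). The gained regions lay at a distance, from -708 kb to 374 kb of the start (negative values lie before it), and all had ranks below 50. Most had a peak in only 2 of the 3 G7 libraries. Several were near the floor, such as the one at 299 kb, with ranks of 2.22 and 0.372 in G7 replicates 1 and 3. The strongest that was present in all 3 G7 libraries, at -457 kb (chr11:112324694-112325108), ranked at 44.95, 48.4 and 36.6. Among regions open in all libraries, the one at -758.5 kb rose from 64.8, 45.7 and 39.6 in WT to 90.5, 77.5 and 79.2 in G7 (limma, difference of 32.4, adjusted p = 0.0388), and the one at -430 kb fell by 9.75 (adjusted p = 0.00766).

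**Figure D2:**
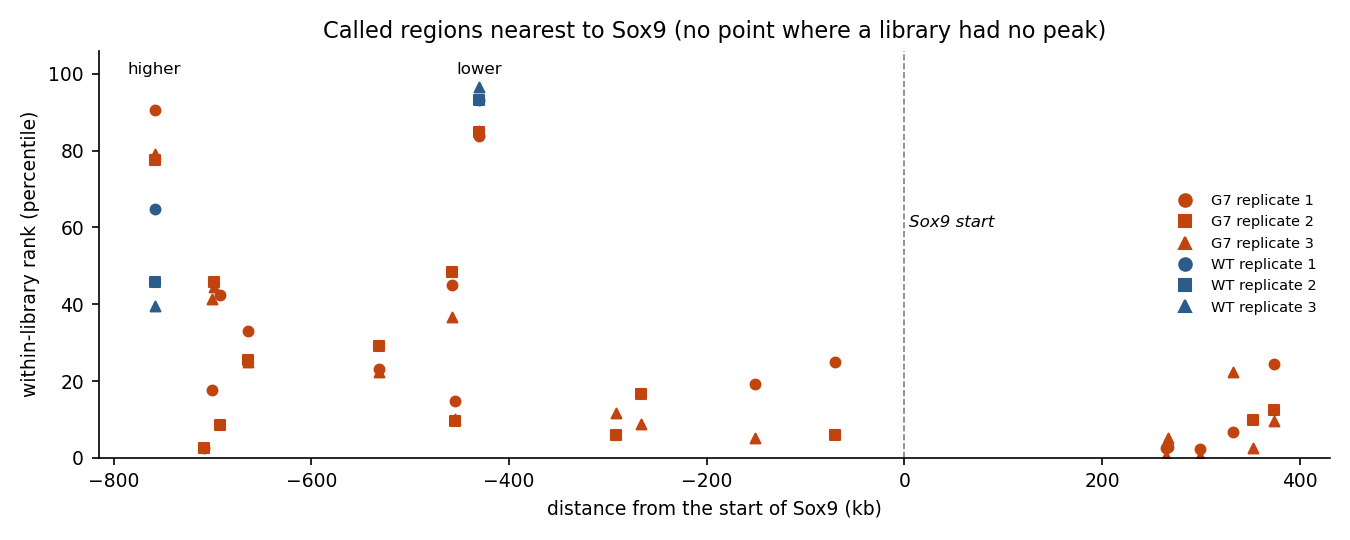
Rank in each library (percentile, y axis) of the 20 called regions nearest to *Sox9* against their distance from its start (kb, x axis), G7 in orange and WT in blue. The 18 gained regions have points of G7 alone at ranks below 50, while the regions marked higher and lower hold points of both lines.

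Of the 20 cartilage genes, 3 had a call at a promoter, each toward G7. *Col2a1*, the main collagen of cartilage, rose at its promoter from 14.8, 6.48 and 2.07 in WT to 54.8, 48.2 and 48.5 in G7 (chr15:98004276-98004900, difference of 42.7 ± 5.72, limma adjusted p = 0.0102, passed in 3 of 6 fits that left out a library). *Cnmd* gained a weak region at its promoter (32.8, 29.3 and 5.13), and *Col11a2* gained one 0.695 kb from a start in 2 libraries (32.2 and 27.7), a call that was lost without either of them. *Col11a1*, a collagen XI chain, gained 7 of 25 regions, and *Sox6*, a partner of SOX9, 7 of 58. Other members of the list went the other way or had no call. *Snorc* lost 2 of 7 regions and gained 0, *Chst11*, a chondroitin sulfotransferase, had 2 lower regions and 1 higher of 11 with a median difference of -7.75, and both regions of *Matn1*, a matrix matrilin, had no call with a median of -6.05.

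Beside adipocyte genes, 12 of 178 regions were gained (6.74%, against 6.33% of all) and 9 lost (5.06%, against 8.35%). In rank, 3 of 103 were higher (2.91%, against 3.12%) and 6 lower (5.83%, against 3.39%). With the replicate block, 20 of the 103 were higher and 18 lower, where 12.0% and 13.7% of all regions tested were. *Pparg*, the master regulator of adipocytes, had a region at its first promoter (chr6:115360782-115361892) with ranks of 84.3, 83.1 and 83.5 in G7 and 9.90 and 20.8 in WT replicates 1 and 2, and no peak in WT replicate 3. The lines were thus far apart, but the region met neither the rule for gains nor the one for ranks. Another *Pparg* region at chr6:115420858-115421317, 0.749 kb from a start, differed by 23.4 ± 9.29 (limma adjusted p = 0.177, or 0.0121 with the replicate block). At chr6:115421685-115422143, on a start of *Pparg*, no difference was detected (0.28 ± 8.04, limma adjusted p = 0.989, or 0.973 with the replicate block). Ranks there were 28.9, 46.1 and 52.3 in G7 and 30.3, 46.6 and 49.5 in WT. *Cebpa*, the partner factor of *Pparg*, differed by 0.16 ± 1.65 (adjusted p = 0.970). *Fabp4* and *Lpl*, targets of PPARG, had no consensus region within 1 kb of a start.

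Among lipid enzymes and regulators of fat precursors, promoters of 4 genes passed the test, and 2 of these calls were lost once ranks were centred by chromosome. *Pnpla2*, the triglyceride lipase, ranked at 98.0, 95.7 and 96.4 in G7 and 86.6, 83.8 and 85.6 in WT (difference of 11.4 ± 1.03, limma adjusted p = 0.00405), in the distal part of chromosome 7 where most regions were higher. *Acsl1*, an acyl-CoA synthetase, rose by 6.08 (adjusted p = 0.0313), but by 0.90 (adjusted p = 0.734) once ranks were centred by chromosome. *Zfp423*, a factor of fat precursors, fell by 31.6 ± 5.87 at one start (adjusted p = 0.0252, passed in 3 of 6 fits that left out a library) and gained a region by another (65.7, 55.7 and 51.3 in G7). *Ebf2* fell by 4.46 (adjusted p = 0.0201), or by 0.47 (adjusted p = 0.803) after centring. The calls at *Acsl1* and *Ebf2* each passed in 1 of 6 fits that left out a library.

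Bone and muscle lists had no call at a promoter. Of 163 regions beside bone genes, 6 were gained (3.68%, against 6.33% of all) and 11 lost (6.75%, against 8.35%). The *Runx2* promoters differed by 4.48 ± 2.89 (limma adjusted p = 0.394) and -0.98 ± 3.22 (adjusted p = 0.893), so no difference was detected there. Beside muscle genes 5 of 114 regions were gained (4.39%) and 15 lost (13.2%), with 4 lost of 26 at *Pax3* and both regions of *Pax7*, the factors of muscle precursors.

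Beside markers of mesenchymal progenitors, fewer regions were gained than over all regions, while the share lost was near that of all. Of 235 regions, 5 were gained (2.13%, against 6.33%) and 21 lost (8.94%, against 8.35%). In rank, 2 of 148 were higher (1.35%, against 3.12%) and 7 lower (4.73%, against 3.39%). Of the lower regions, 3 were nearest to *Fn1* and 2 to *Thy1*. With the replicate block, 8 of the 148 were higher and 41 lower, where 12.0% and 13.7% of all regions tested were. The median rank difference was -3.10, or -1.35 after centring by chromosome. *Cd44* fell by 4.66 at its promoter (limma adjusted p = 0.0287) and *Itgb1* rose by 4.87 (adjusted p = 0.0102), but these values were 0.14 and -0.31 after centring by chromosome (adjusted p of 0.955 and 0.878), so neither direction held. The call at *Cd44* passed in 1 of 6 fits that left out a library and that at *Itgb1* in 4. Beside markers of other cell types, 20 of 105 regions were lost (19.05%, against 8.35%) and 3 gained (2.86%, against 6.33%), with the peaks numbering 65, 72 and 74 in G7 and 83, 91 and 89 in WT. Of those 20, 8 were nearest to *Rbfox3* and 3 to *Snap25*, both neuronal genes. *Tek*, an endothelial receptor, rose by 29.4 (adjusted p = 0.0352, passed in 1 of 6 fits that left out a library), and the part of these markers in the other results was not tested.

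AP-1 factor genes gained 1 of 105 regions (0.952%, against 6.33% of all) and lost 11 (10.5%, against 8.35%). *Atf3*, a stress-response factor of this family, rose from 54.9, 47.1 and 42.8 in WT to 90.7, 89.6 and 89.9 in G7 at its promoter (chr1:191182396-191183811, difference of 41.8 ± 3.87, limma adjusted p = 0.00408). It lies beside *Batf3*, whose promoter was gained at ranks of 20.2, 31.9 and 6.995. *Jund* rose by 3.96 (adjusted p = 0.0401), which turned to -1.22 after centring by chromosome (adjusted p = 0.491) and passed in 1 of 6 fits that left out a library.

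**Figure D3:**
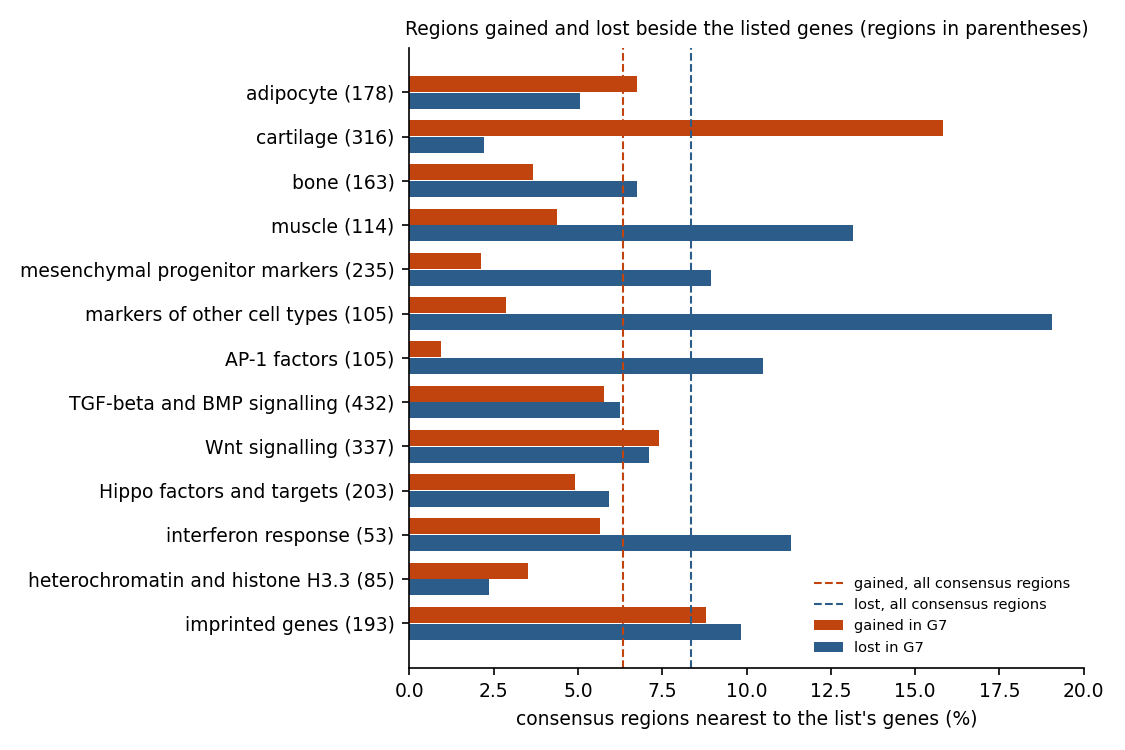
Share of the consensus regions nearest to the genes of each list (x axis, %) that were gained (orange) or lost (blue) in G7, with the number of regions in parentheses and dashed lines at the shares over all consensus regions, 6.33% and 8.35%. Cartilage genes stand out with 15.8% gained, and markers of other cell types with 19.05% lost.

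Signalling genes had shares of gained and lost regions near those of all regions (6.33% and 8.35%). Of 432 regions beside TGF-beta and BMP genes, 25 were gained (5.79%) and 27 lost (6.25%), and of 337 beside Wnt genes, 25 (7.42%) and 24 (7.12%). *Grem1*, a BMP antagonist, fell from 77.1, 75.5 and 72.4 in WT to 54.9, 55.5 and 55.9 in G7 (difference of -19.6 ± 3.41, limma adjusted p = 0.0212, passed in 2 of 6 fits that left out a library), while *Nog*, another antagonist, gained a region (26.7, 20.8 and 42.8). *Id1*, a BMP target, fell by 3.97 (adjusted p = 0.0484), which turned to 0.82 after centring (adjusted p = 0.703). Among Wnt genes, the ligand *Wnt5a* fell by 27.2 ± 5.34 (adjusted p = 0.0299, passed in 1 of 6 such fits) and lost 4 of its 5 regions. The receptor *Fzd8* rose by 20.2 ± 1.92 (adjusted p = 0.00409). The inhibitor *Sfrp1* gained its promoter region (31.7, 42.0 and 52.4), as did the receptor *Lgr5* (51.8, 55.4 and 47.0). *Axin2*, a target and inhibitor of the pathway, lost a promoter region (66.2, 62.5 and 68.9 in WT). *Lgr4* fell by 2.31 (adjusted p = 0.0303) and differed by 2.49 after centring (adjusted p = 0.0271). The calls at *Id1* and *Lgr4* passed in 1 of 6 such fits each.

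Hippo factors and targets had 10 gained (4.93%, against 6.33% of all) and 12 lost (5.91%, against 8.35%) of 203 regions. Heterochromatin and histone H3.3 genes had 3 (3.53%) and 2 (2.35%) of 85, and neither list had a call at a promoter. Interferon genes had 3 gained (5.66%) and 6 lost (11.3%) of 53. *Irf7* rose by 13.0 ± 1.23 (limma adjusted p = 0.00409) and *Bst2* by 21.9 ± 3.93 (adjusted p = 0.0230, passed in 1 of 6 fits that left out a library), and *Ifi44* lost a weak region. Imprinted genes had 17 gained (8.81%) and 19 lost (9.84%) of 193.

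Single imprinted promoters changed strongly. At the *Gnas* cluster on chromosome 2, the antisense transcript *Nespas* rose from 38.8, 36.6 and 40.4 in WT to 82.6, 80.1 and 77.5 in G7 (chr2:174294483-174295940, difference of 41.5 ± 3.92, limma adjusted p = 0.00409), and *Gnas* by 27.6 ± 4.68 (adjusted p = 0.0197, passed in 1 of 6 fits that left out a library). Both rose on a chromosome that was lower in G7 as a whole. *Plagl1*, a growth regulator, lost a promoter region (79.5, 74.3 and 75.7 in WT), while *Grb10*, a growth inhibitor, gained one (64.4, 58.9 and 54.7 in G7), beside *Peg13* above. *Kcnq1ot1* rose by 6.42 ± 0.79 (adjusted p = 0.00774) and gained 4 of its 7 regions. It lies in the distal part of chromosome 7, where the median difference was 11.3 and 61 of 387 regions were gained. *Snrpn* gained 4 of 6 regions. *Dlk1*, an inhibitor of adipogenesis, lost 4 of 12.

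Motifs at the summits differed between the directions of change. An AP-1 motif lay within 100 bp of the summit in 27.5% of lost regions (95% Wilson interval from 26.5%) and 25.1% of lower regions, compared with 11.2% of gained, 9.24% of higher and 19.5% of all consensus regions. In introns and intergenic regions alone, it was in 28.9% of lost, 31.9% of lower, 11.8% of gained and 12.1% of higher regions, against 22.6% of all. A SOX motif was in 5.73% of gained and 5.75% of higher regions, 3.67% of lost and 3.81% of lower regions, and 4.32% of all. Its 95% Wilson intervals were 5.14% to 6.38% for gained and 3.26% to 4.14% for lost regions. Among strict gained regions alone, the kind shown as sequences, the share was 4.91% (4.07% to 5.93%), an interval that holds the 4.32% of all regions. Exact matches are a description of the sequence and not sites of a factor.

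The same direction was seen over all peaks of a library. The AP-1 share was 14.1%, 19.2% and 18.2% in G7 and 16.3%, 21.7% and 21.3% in WT. The lines overlapped, because replicate 1 was low in both, but G7 was below WT in each pair of same-numbered libraries, with a mean difference of -2.58 ± 0.435 percentage points (SD, 3 pairs). The difference did not pass over libraries (exact two-sided permutation p = 0.3, adjusted p = 0.667) and could not in pairs, where 0.25 is the smallest p. The SOX share was 4.38%, 4.31% and 4.30% in G7 and 4.03%, 4.04% and 4.19% in WT, higher by 0.242 percentage points without overlap (exact two-sided permutation p = 0.1, the smallest that 3 against 3 allow, adjusted p = 0.5). The number of peaks (76516 ± 1642 and 78076 ± 1532, SD, n = 3, exact permutation p = 0.4), the covered length (47.7 ± 1.14 and 47.0 ± 1.21 Mb, exact permutation p = 0.6) and the share of peaks at promoters (18.1% ± 0.322 and 17.98% ± 0.269, exact permutation p = 0.7) overlapped between the lines.

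**Figure D4:**
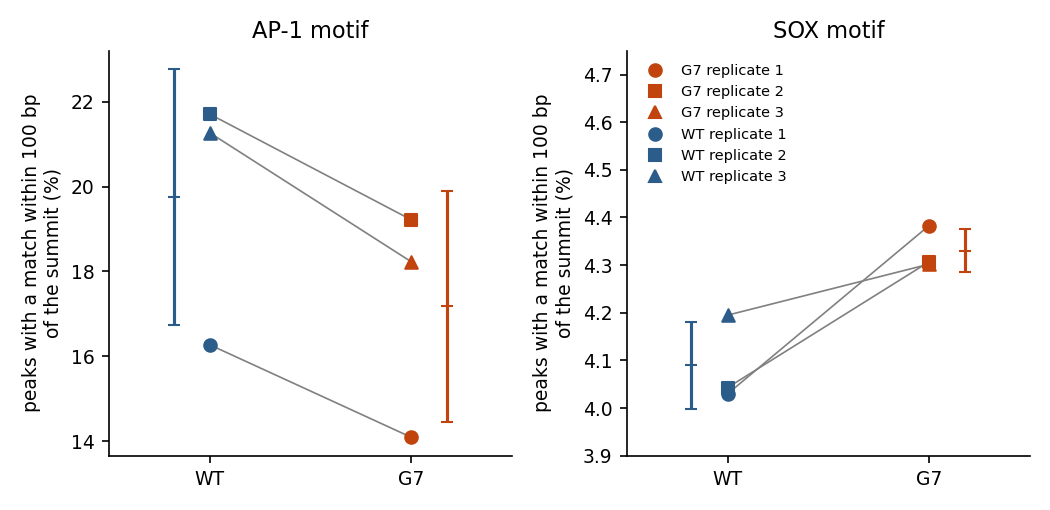
Share of the peaks of each library with an AP-1 motif (left) or a SOX motif (right) within 100 bp of the summit (y axis, %, not starting at 0), with grey lines joining libraries of the same replicate number and bars at the mean ± SD of 3 libraries. All 3 lines fall from WT to G7 for AP-1 and all 3 rise for SOX.

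Ranks also shifted along whole chromosomes. Over regions open in all 6 libraries, the median rank in G7 lay below that in WT without overlap on chromosomes 1 (by -3.90 percentile points), 2 (-5.30), 5 (-3.72) and 14 (-4.49), and above it on chromosomes 6 (1.71), 8 (4.68), 12 (2.24) and 18 (2.26). Each of these 8 had an exact two-sided permutation p of 0.1, the smallest possible, and an adjusted p of 0.237 over 19 chromosomes. On chromosome 2 the medians were 64.9, 65.7 and 64.8 in G7 and 70.6, 70.5 and 70.1 in WT, and on chromosome 8 they were 71.7, 71.3 and 70.5 and 67.3, 66.3 and 65.9. The shifts ran along the chromosome. Since ranks are relative within a library, a rise on some chromosomes goes with a fall on others. All 35 windows of 5 Mb with at least 20 regions had a median below 0 on chromosome 2, as did all 34 on chromosome 1 and all 18 on chromosome 14, and all 25 were above 0 on chromosome 8. Presence followed, with 12.1% of regions lost and 3.34% gained on chromosome 2, and 4.76% lost and 10.3% gained on chromosome 8. DNA copy number was not analysed here, and its part in these shifts was not tested.

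**Figure D5:**
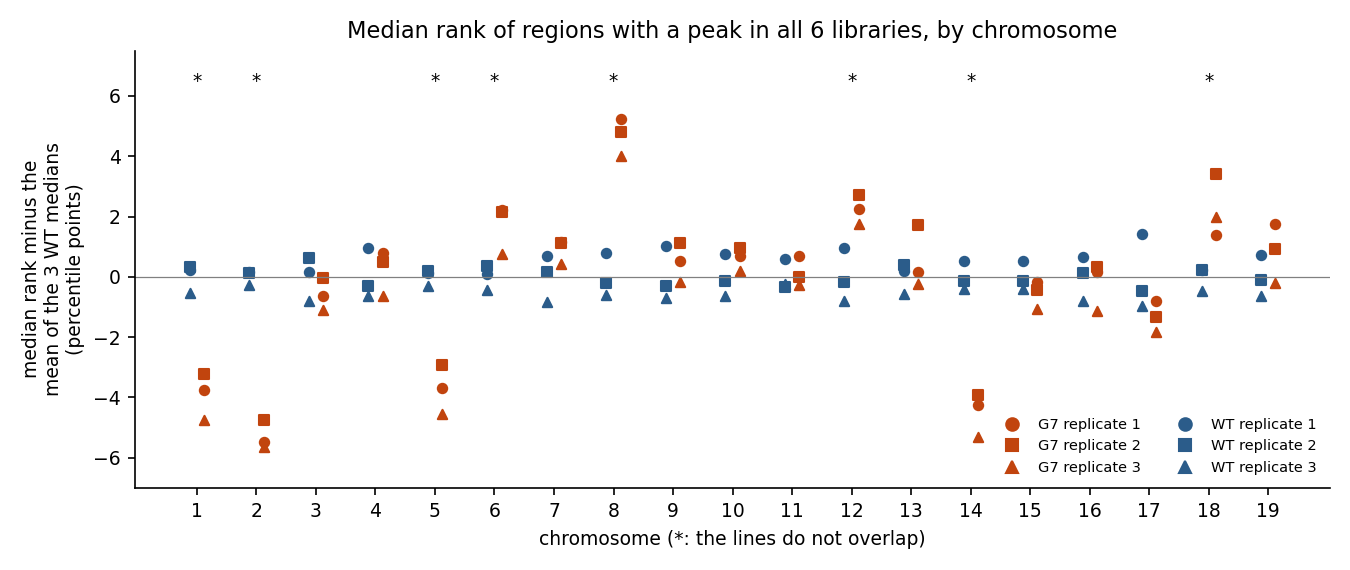
Median rank of the regions open in all 6 libraries on each chromosome (x axis), given as the difference from the mean of the 3 WT medians (y axis, percentile points), with 1 point per library, G7 in orange and WT in blue. Stars mark the 8 chromosomes where the lines do not overlap, from -5.30 on chromosome 2 to 4.68 on chromosome 8.

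Parts of 2 chromosomes shifted as blocks, found after the values were seen. On chromosome 7 from 140 Mb to the end, the median rank of 226 regions was 80.2, 80.8 and 81.2 in G7 and 66.9, 69.4 and 67.1 in WT, and 203 of the 226 differences were above 0 (median of 11.3). Of 387 consensus regions there, 61 were gained and 11 lost, where 6.33% and 8.35% of all consensus regions were. Of the 226, 111 were higher and 0 lower, where 3.12% and 3.39% of all regions tested were. This end thus held 111 of the 1547 higher regions of the genome. The rest of the chromosome had a median difference of 0.12 over 2740 regions. *Pnpla2*, *Irf7*, *Kcnq1ot1* and the *LTO1* region all lie in this block, and the rises of the first 3 were 11.4, 13.0 and 6.42 percentile points beside this median of 11.3. On chromosome 11 up to 45 Mb, the median difference was -3.62 over 706 regions, with 532 below 0, and 0.67 over the other 3259. *Grb10* gained its promoter region inside this lower block.

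After ranks were centred by chromosome, 1598 regions were higher and 1487 lower, and 2135 of the 3228 calls were kept in the same direction. The 24 regions named for the size of their rank difference all passed with centring, by -79.5 to 71.5 percentile points. They were chosen for differences far wider than the chromosome shifts, so this is no separate check of them. With both centring and the replicate block, 12598 regions passed.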

How the data were processed

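ATAC-seq was analysed from the 3 G7 and 3 WT libraries, and B10 was not used. The authors aligned 75 bp paired-end reads to mm10 with Rsubread after Rfastp, and called peaks per replicate with MACS2 in its paired-end mode (version not given in the sources used here), without pooling. The deposited lists give for each peak a fold enrichment (a ratio of signal to background), a −log10 q-value and a summit offset in bases. The lowest −log10 q of each list was about 1.3, so weaker places are absent. They hold no counts, so depth is unknown, and the study's DESeq2 test on counts could not be repeated.

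Peaks on chromosomes 1 to 19 that overlapped or touched were merged, and ranks were percentiles of −log10 q (scipy 1.17.1), tied values sharing their mean. Ranks of regions open in all 6 libraries were compared with limma 3.58.1 (trend, no block), with Benjamini-Hochberg adjustment over the 49548 regions. A check on simulated data drew independent noise for each library, so it could not cover deviations that same-numbered libraries share. Per-library measures and chromosome medians had exact two-sided permutation tests (numpy 2.4.6), adjusted over 5 measures or 19 chromosomes. Same-numbered libraries deviated together (correlations of 0.66, 0.50 and 0.36, each library highest with its own number), so a replicate block was fitted as an alternative. Intervals are Wilson and cover counting error only. Replicates are separate samples by their labels, and nothing says that they came from separate cultures, so p-values may measure technical spread. At most 0.358% of peaks had identical bounds in any pair of libraries.

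Starts, exons and introns were from GENCODE M21, and a promoter was within 1 kb of a start. Named were the 8 promoter and 4 other regions with the highest lowest rank (strict gains and losses) or the largest difference (ranks) in each direction, listed genes with a changed promoter, and 7 lineage regulators and targets. A gene that this rule picked is not reported here and was not replaced. Regions named by rank difference were taken from calls whose lines did not overlap. Unnamed gene models (Gm and Rik symbols) were passed over. Regions nearest to *Fabp4*, *Lpl* and *Myod1* were added after seeing the data. The lines, 13 gene lists and rules were chosen with earlier results of these data known. Alternatives left out each library, raised the −log10 q, equalised the number of peaks, changed merging, ranking, promoter distance and motif window, and centred ranks by chromosome. Sequences are from GRCm38, the assembly of mm10. MACS2 and mm10 are also in the submitters' processing notes.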

Additional observations from a re-analysis of the deposited data

Results flagged for a closer look

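Chromosome X was outside the comparison of chromosomes 1 to 19 and showed a difference between the lines. G7 libraries held 1733, 1791 and 1715 peaks on it and WT libraries 1668, 1652 and 1627, so every G7 library lay above every WT library. The means were 1746 ± 39.7 and 1649 ± 20.7 (SD, n = 3), a difference of 97.3 peaks (exact two-sided permutation p = 0.1, the smallest possible). Per 100 peaks on chromosomes 1 to 19, this was 2.23, 2.32 and 2.30 in G7 and 2.10, 2.11 and 2.13 in WT. *Atrx* lies on this chromosome.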

How the results depend on the processing

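Gains and losses with 3 of 3 against 0 of 3 libraries were 2096 and 2831, and 1399 and 2732 when the present side needed a −log10 q of at least 10. Leaving out 1 library gave 3095 to 8752 gains, 3649 to 9355 losses, 123 to 2950 higher and 215 to 1731 lower ranks. Leaving out a replicate number in both lines, chosen after seeing the data, gave 3864 to 5256 gains and 4526 to 6172 losses, and 4591 higher and 4951 lower ranks without replicate 1 but 0 and 0 without replicate 2 or 3, where each line had 2 libraries. With the replicate block, 5949 regions were higher and 6807 lower, and 6121 and 6477 with the block and ranks centred by chromosome. Ranks by fold enrichment gave 283 and 356, log2 fold enrichment 358 and 469, and all consensus regions with rank 0 where absent 3365 and 4326. Of the regions beside listed genes, 245 were called with 3 against 0 libraries and 747 with the replicate block. With an equal number of peaks, 15 chromosomes did not overlap in place of 8. The mean of the 3 pairs was the mean difference of the lines for each library measure, so the block turned none of them.

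The difference in the share of peaks at promoters changed sign, with -0.0996 percentage points at an equal number of peaks, -0.0963 with 3 kb promoters and -0.0442 to 0.260 without 1 library. Centred by chromosome, with or without the replicate block, *Cd44* (0.14), *Id1* (0.82), *Itgb1* (-0.31), *Jund* (-1.22) and *Lgr4* (2.49) changed sign, and *Jund* was at -2.86 in ranks by fold enrichment and -0.08 in log2 fold enrichment; the cause of these changes was not tested. Over all named regions, 195 of 925 alternative rank fits kept the direction but lost the call, 44 of them without replicate 2 of both lines and 44 without replicate 3. In 709 the direction and the side of the threshold were as before, which includes regions that were not called. Presence calls were lost in 19 of 444 alternatives, at *Rbfox3*, *Ifi44*, *Col11a2* and *Lpl*, and a region with 3 against 0 libraries cannot lose its call when 1 library is left out. No depth limit can be given, since the lists hold no counts.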
